A study of Mus musculus with 6 samples.

Results

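The expression of 10 genes that encode subunits of the transcription factor TFIIH was described in mouse oocytes with and without Lsd1: Cdk7, Ccnh and Mnat1 of the kinase module, and Ercc2, Ercc3, Gtf2h1, Gtf2h2, Gtf2h3, Gtf2h4 and Gtf2h5 of the core. They were taken by symbol, and all 10 were found among the 23284 gene symbols of the count files. Their choice and the split into kinase and core were made with the difference between Lsd1 KO and Control already known, so their values in that contrast are given as a description, without p-values. The oocytes were fully grown, at the germinal vesicle stage (held in meiotic prophase), and came from females 4 to 6 weeks old of mixed C57BL/6-129 background, primed 48 hours earlier with pregnant mare's serum gonadotrophin (5 IU). Both groups share this background and hormone treatment. The Lsd1 KO group (n = 3; KO below) and the Control group (n = 3) differ in genotype, each sample holds the pooled RNA of 100 oocytes, and the deleted exons, the driver of the deletion and the alleles behind the label Control are details that the sources used here do not give. In such bulk samples fewer cells of a type and less RNA per cell cannot be told apart.

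TFIIH opens promoter DNA for RNA polymerase II and opens DNA around lesions in nucleotide excision repair. Its core holds the helicase and translocase subunits and the scaffold around them. Its kinase module, the CDK-activating kinase, consists of the kinase CDK7, its cyclin H and the assembly factor MAT1. Bound to the core, this module phosphorylates the C-terminal domain (CTD) of RNA polymerase II, and free of it, it phosphorylates the activating T-loop of cell-cycle kinases, CDK1 among them, the kinase that drives an oocyte out of prophase arrest.

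The libraries held 10735422 to 13035045 counts. Kdm1a, the gene of LSD1, was at 3.77, 2.80 and 3.23 CPM (TMM-scaled counts as a share of the library) in KO and at 73.9, 72.5 and 44.4 CPM in Control. Each library therefore carried the level its label calls for. The 12 oocyte markers summed to 34345 to 39093 CPM in KO and 24049.7 to 28440.4 CPM in Control (2 of 12 higher, 1 lower, where 21.3% of all genes tested were called). Without Gdf9, an oocyte growth factor gene, the other 11 overlapped, at 19864 to 22643 and 17034 to 22872 CPM. The 12 granulosa markers summed to 373 to 469 CPM in KO and 129 to 152 CPM in Control (2 of 11 tested higher, 1 lower). Without the aromatase gene Cyp19a1 the other 11 summed to 64.2 to 134 and 98.0 to 102 CPM, which overlap. Most of that Control sum was Nr5a2, called lower, at 25.7 to 33.2 CPM in KO and 67.5 to 73.0 CPM in Control. Fshr, Inha (called), Inhba, Amh, Amhr2, Foxl2, Cyp11a1, Hsd17b1 and Fst had higher means in KO. Kitl had a lower mean, and each of these genes overlapped between the groups. The 10 immune markers summed to 16.1 to 160 and 8.66 to 48.6 CPM (1 of 10 higher). The 7 theca markers summed to 13.3 to 44.8 and 11.2 to 19.6 CPM (none of 3 tested called), and both of these lists overlapped between the groups. The part of these cells in the values below was not tested.

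Upstream sequences are shown first for the kinase genes Cdk7 and Mnat1 and for the core genes of highest (Gtf2h1) and lowest fold change (Gtf2h4). The kinase genes, which were high together, can thus be compared letter by letter. These 4 were chosen after their values were seen. RefSeq promoter entries (build GRCm38.p6) were found for 8 of the 10 members, with Ccnh and Ercc3 unmatched. The 250 bases before the annotated start are printed 5′ to 3′ on the gene's strand, with the ETS core CGGAAG and the E-box CACGTG in capitals on either strand. The windows are chr13:100730943-100731192 (minus strand) for Cdk7, chr12:73123467-73123716 (plus) for Mnat1, chr7:46795844-46796093 (plus) for Gtf2h1 and chr17:35673744-35673993 (minus) for Gtf2h4.
Cdk7: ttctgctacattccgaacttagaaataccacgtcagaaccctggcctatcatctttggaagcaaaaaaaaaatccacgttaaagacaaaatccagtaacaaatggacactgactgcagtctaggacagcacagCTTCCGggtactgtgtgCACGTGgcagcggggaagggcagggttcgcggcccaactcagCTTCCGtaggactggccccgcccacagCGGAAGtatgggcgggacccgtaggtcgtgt
Mnat1: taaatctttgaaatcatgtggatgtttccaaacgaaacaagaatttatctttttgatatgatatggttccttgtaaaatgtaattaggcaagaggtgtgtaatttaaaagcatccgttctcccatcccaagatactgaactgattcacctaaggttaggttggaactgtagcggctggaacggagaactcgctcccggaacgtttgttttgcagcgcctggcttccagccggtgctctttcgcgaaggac
Gtf2h1: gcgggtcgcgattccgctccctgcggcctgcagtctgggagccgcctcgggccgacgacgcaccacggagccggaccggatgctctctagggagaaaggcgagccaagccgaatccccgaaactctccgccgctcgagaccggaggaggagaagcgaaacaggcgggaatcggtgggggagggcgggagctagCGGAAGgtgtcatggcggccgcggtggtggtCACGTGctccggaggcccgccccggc
Gtf2h4: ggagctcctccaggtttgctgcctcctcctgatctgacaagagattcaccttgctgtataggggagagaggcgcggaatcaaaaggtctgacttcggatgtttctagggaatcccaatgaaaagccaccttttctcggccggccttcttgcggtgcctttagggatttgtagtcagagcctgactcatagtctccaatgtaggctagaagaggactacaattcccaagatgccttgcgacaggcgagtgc

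The 2 kinase genes with an entry did not share these letters. The Cdk7 window held 3 ETS cores (first bases at -117, -58 and -31 from the start) and 1 E-box (-100), and the Mnat1 window held neither. The Gtf2h1 window held 1 of each (-57 and -26), and the Gtf2h4 window held none. Among the windows not printed, that of Gtf2h2 held 2 ETS cores (-220 and -184) and no E-box. The first Gtf2h5 start had 1 ETS core (-245) and 1 E-box (-97), and its second start had 1 E-box (-190). The windows of Ercc2 and Gtf2h3 held neither motif. Among all 32851 promoter windows of this length, 13.6% held CGGAAG and 6.02% held CACGTG. In addition, 5 motifs were searched on both strands after the values were known: the GC box GGGCGG (32.7% of all windows), the CCAAT box CCAAT (33.8%), the TATA box TATAAA (12.4%), the NRF1 motif (3.74%) and the NOBOX motif TAATTG (7.17%). TATAAA and TAATTG were in none of the members' windows. GGGCGG was in the windows of Cdk7, Ercc2, Gtf2h1, Gtf2h2 and Gtf2h5. CCAAT was in those of Ercc2 (3 matches) and Gtf2h4 (2), and the NRF1 motif in that of Ercc2, where 1 base is shared with a CCAAT match, and in that of the second Gtf2h5 start. Counts of CpG dinucleotides ran from 8 (Gtf2h4), 11 (Mnat1) and 14 (Cdk7) to 32 (Gtf2h1) and 33 (Gtf2h3), beside a median of 6 over all windows.

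Transcripts of all 3 kinase subunits were more abundant in KO. Cdk7, the catalytic subunit, was at 989, 1428 and 1012 CPM in KO and at 417, 537 and 518 CPM in Control. Every KO library lay above every Control library, and the lowest of the first was 1.84 times the highest of the second. The log2 fold change was 1.22 ± 0.20 (SE), 2.33-fold higher. These values rest on 11273 to 15835 counts per KO library and 4504 to 7127 per Control library. Cdk7 lies on the minus strand of chromosome 13, 101466982 to 101500897, in mm9 coordinates, as do all gene positions given here. Its exons overlap those of Ccdc125 on the opposite strand by 213 bases, and Ccdc125 itself had 0 to 6 counts per library.

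Ccnh encodes cyclin H, the partner that activates CDK7. It was at 48.0, 56.7 and 61.3 CPM in KO and at 30.2, 19.3 and 33.4 CPM in Control. The groups did not overlap, the gap between them being 1.44-fold, and the Control libraries were spread more widely (coefficient of variation 26.8%) than the KO libraries (12.2%). The log2 fold change was 1.00 ± 0.23. Ccnh (chromosome 13, 85329013 to 85363074) has a near-copy elsewhere: 98.0% of its longest transcript matched chromosome 4, 119190677 to 119192786, at 91.6% identity, where the pseudogene Gm12955 is annotated. The sources used here do not say how reads that match both places were counted. No other member had a second match over at least 50% of its transcript at 80% identity. Ccnh also overlaps Rasa1 on the opposite strand, by 12 bases of exon.

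Mnat1 encodes MAT1, which holds CDK7 and cyclin H together and ties them to the core. Its KO libraries were at 61.8, 56.6 and 27.4 CPM and its Control libraries at 22.6, 20.1 and 20.9 CPM. KO replicate 3 stood close to the Control range, 1.21 times its highest library, while the other two were well above it. The spread was 38.2% in KO and 5.93% in Control. The log2 fold change was 1.20 ± 0.27 over all libraries and 1.51 without KO replicate 3. Mnat1 lies on chromosome 12 from 74224704 to 74374975.

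**Figure D1:**
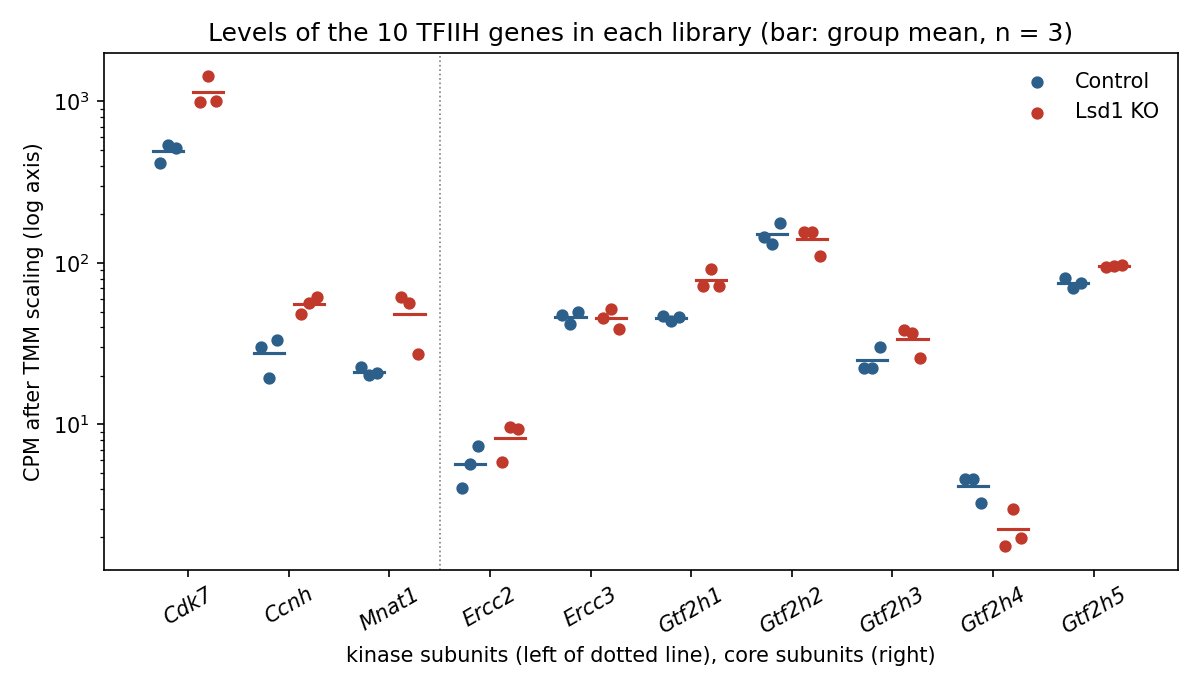
CPM after TMM scaling (log axis) of the 10 genes in the 3 Control and 3 KO libraries, with bars at the group means. The 3 kinase genes left of the dotted line lie higher in every KO library, whereas of the core genes only Gtf2h1 and Gtf2h5 do so and only Gtf2h4 lies lower throughout.

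The core did not move as a block. Gtf2h1, the p62 scaffold subunit that other factors dock on, was the core gene most like the kinase module: it was at 72.1, 91.2 and 72.1 CPM in KO and at 46.7, 43.6 and 46.6 CPM in Control. The groups did not overlap, with a gap of 1.54-fold, and the log2 fold change was 0.78 ± 0.18. Gtf2h1 (chromosome 7, 54051473 to 54079170) starts 39 bases from the start of Hps5, which runs the other way and had 166 to 251 counts in KO and 119 to 185 in Control libraries.

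The groups overlapped for both DNA-opening enzymes of the core. Ercc3 encodes XPB, the translocase that opens promoters. It was at 45.7, 51.7 and 39.1 CPM in KO and at 47.9, 42.0 and 49.8 CPM in Control, so the groups lay on top of each other. Its log2 fold change was -0.03 ± 0.19, and its sign turned under 4 of 15 alternatives (up to 0.10). Ercc2 encodes XPD, the repair helicase, which also bridges core and kinase. It was scarce, at 5.85, 9.65 and 9.34 CPM in KO and at 4.07, 5.72 and 7.32 CPM in Control (44 to 107 counts per library). These groups overlapped, and the log2 fold change was 0.54 ± 0.35. Exons of Ercc2 overlap those of Klc3 on the opposite strand by 744 bases, and Klc3 had 0 to 5 counts per library. They also overlap those of Gm17574, a long non-coding RNA gene on the opposite strand, by 1025 bases. Gm17574 is not among the counted symbols, and the part of these overlaps in the Ercc2 counts was not tested. Ercc3 lies on chromosome 18 from 32399954 to 32429805 and Ercc2 on chromosome 7 from 19967359 to 19981043.

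Among the other core subunits, Gtf2h2 and Gtf2h3 encode p44, the partner of XPD, and p34, which pairs with p44. Gtf2h2 was at 156, 155 and 109.9 CPM in KO and at 145, 131 and 176 CPM in Control. The groups overlapped, and the log2 fold change was -0.11 ± 0.19, positive when KO replicate 3 (0.08) or Control replicate 3 (0.01) was left out. Gtf2h3 was at 38.6, 37.1 and 25.8 CPM in KO and at 22.5, 22.3 and 30.3 CPM in Control. KO replicate 3 was again the lowest of its group and lay below Control replicate 3, and the log2 fold change was 0.44 ± 0.22. Gtf2h2 lies on chromosome 13 from 101230173 to 101262534, on the same chromosome as Cdk7 and Ccnh, and Gtf2h3 on chromosome 5 from 125029149 to 125047689. Gtf2h3 starts 9 bases from the start of Eif2b1, which runs the other way.

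Gtf2h5 and Gtf2h4 encode p8, a small stabilising subunit, and p52, the subunit that anchors XPB and that p8 binds next to. Gtf2h5 was tightly grouped, at 95.0, 95.2 and 97.0 CPM in KO and at 80.5, 70.3 and 75.5 CPM in Control. The groups did not overlap, although the log2 fold change was only 0.34 ± 0.16 and did not pass the threshold given below. Gtf2h4 lay the other way, at 1.76, 2.98 and 1.97 CPM in KO and at 4.62, 4.59 and 3.25 CPM in Control. Its groups did not overlap either, with a gap of 1.09-fold, and the log2 fold change was -0.89 ± 0.44. It rests on 22 to 33 counts per KO library and 36 to 61 per Control library. Gtf2h5 lies on chromosome 17 from 6079786 to 6086517 and Gtf2h4 on the same chromosome from 35804675 to 35810684.

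All 10 members passed the filter on low counts and entered the fit over 12935 genes. At an adjusted p under 0.05 (edgeR's quasi-likelihood test, Benjamini-Hochberg over all genes tested), 21.3% of all genes passed, 11.0% as higher and 10.3% as lower in KO. Among the members 4 passed as higher, namely Cdk7, Ccnh, Mnat1 and Gtf2h1, and none as lower. These 4 genes passed in each of the 15 refits with another scaling, test, filter, block, correction or library set, and at an adjusted p under 0.01. Every KO library lay above every Control library for 5 members, where 19.5% of all genes did so, and below for 1 member, where 19.1% did so. Since the members were chosen on this contrast, nothing is read from these counts.

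**Figure D2:**
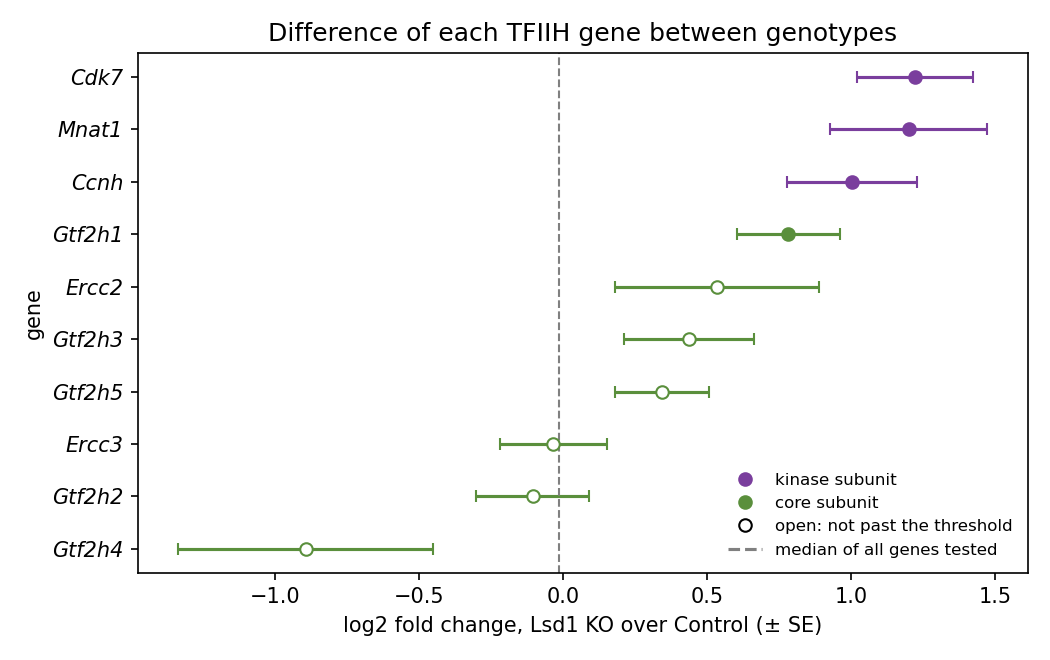
Log2 fold change of KO over Control with its standard error for each member, ordered by value; filled points passed the threshold over all genes. The 3 kinase genes take the top places, from 1.00 to 1.22, and the core genes run from -0.89 to 0.78 around the median of all genes (dashed line).

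Set against each other as classes, the kinase subunits stood farther above the core subunits in each KO library than in any Control library. The median log2 fold change was 1.20 over the 3 kinase genes (1.00 to 1.22), 0.34 over the 7 core genes (-0.89 to 0.78), and -0.01 over all genes tested. The mean log2 CPM of the kinase genes minus that of the core genes was 2.25, 2.20 and 2.06 in KO and 1.26, 1.14 and 1.23 in Control. These means are not divided by gene length, so their heights do not rank the classes by level. The groups lay apart, at 2.17 ± 0.10 and 1.21 ± 0.06 (SD, n = 3 each), a difference of 0.96. Being a difference within each library, it hardly depends on how libraries were scaled. The core mean itself was 4.98 ± 0.18 in KO and 4.83 ± 0.09 in Control, ranges that overlap. The difference of 0.96 was 0.80 without Gtf2h4 and 1.12 after transcript length and GC content were corrected for, and 0.92 to 1.02 with any 1 library left out.

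**Figure D3:**
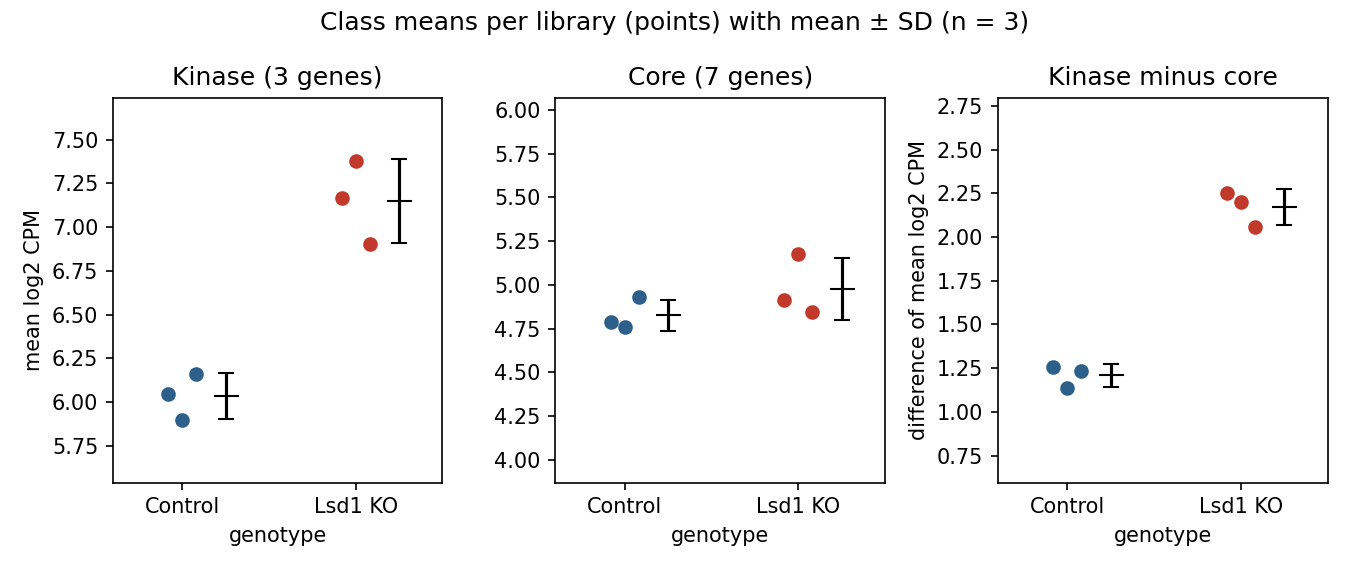
Mean log2 CPM of the 3 kinase genes, of the 7 core genes, and their difference in each library (points), with the mean ± SD of each genotype (n = 3). The kinase minus core values lie at 2.06 to 2.25 in KO and 1.14 to 1.26 in Control, while the core means overlap.

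Levels of single genes were compared with each other per length, as CPM per kilobase of exon (RPKM), with the merged exon length of GENCODE M1. In Control, Cdk7 was the most abundant member at 58.5 ± 7.71 RPKM, followed by Gtf2h2 at 34.5 ± 5.28 and Gtf2h5 at 19.6 ± 1.32 RPKM. Ercc3 (16.4 ± 1.42) and Gtf2h1 (14.9 ± 0.572 RPKM) came next, with overlapping libraries. Ccnh (8.90 ± 2.39) and Mnat1 (8.46 ± 0.502 RPKM) also overlapped each other. Gtf2h3 stood at 6.51 ± 1.18 RPKM, 4.76 times Ercc2 (1.37 ± 0.389), which overlapped Gtf2h4 (1.25 ± 0.237 RPKM). Cdk7 thus stood above 91.4% of the 12503 tested genes with an exon length in Control, and Gtf2h4 above 22.7%.

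In KO the order of the extremes was kept, with Cdk7 at 136 ± 29.5 RPKM and Gtf2h4 at 0.676 ± 0.196 RPKM. The middle of the order ran together: Gtf2h2 (32.1), Gtf2h1 (25.6), Gtf2h5 (24.8), Mnat1 (19.4), Ccnh (17.8) and Ercc3 (16.0 RPKM) each overlapped the next. The Cdk7 value depends on its gene model, whose merged exons span 8386 bases with a coding sequence of 1041. Per kilobase of coding sequence, Cdk7 was still first in Control at 471 ± 62.1, but Gtf2h5, with a coding sequence of 216 bases, moved to the second place at 349 ± 23.6. Ercc2 (1.78 to 3.20) then stood last by its mean, below Gtf2h4 (2.34 to 3.32), with overlapping libraries, whereas in KO Gtf2h4 was last on both scales.

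The ratios of Cdk7 to its partners overlapped between the genotypes, while its ratios to the core genes Ercc3 and Gtf2h2 did not. These ratios restate the differences given above, for members chosen with this contrast known, and nothing further is read from them. Per exon length, the ratio of Cdk7 to Ccnh was 7.63, 9.32 and 6.11 in KO and 5.10, 10.3 and 5.73 in Control, overlapping ranges. The ratio of Cdk7 to Mnat1 also overlapped, at 4.78, 7.53 and 11.0 against 5.51, 7.97 and 7.41. Against the core translocase gene Ercc3, by contrast, the ratio was 7.32, 9.34 and 8.76 in KO and 2.94, 4.32 and 3.52 in Control. Against Gtf2h2 it was 3.31, 4.80 and 4.80 in KO and 1.49, 2.14 and 1.53 in Control. Neither of these ratios overlapped between genotypes, and ratios to the other core genes were not taken.

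The genes whose library profile was most like that of Cdk7 were sought among 8157 others with a mean of at least 10 CPM, by the root mean square distance of centred log2 CPM over the 6 libraries. The nearest were 2410022L05Rik (distance 0.06), Gtdc1 (0.07), Gm19434 (0.10), Cdc14b (0.10) and Iffo2 (0.10). Gtdc1, a glycosyltransferase-like gene, was at 799, 1003 and 795 CPM in KO and 324, 431 and 409 CPM in Control. Its highest library (KO replicate 2) and lowest (Control replicate 1) are those of Cdk7, a likeness that comes with being picked by this distance. The other members were farther from Cdk7, Gtf2h1 at 0.26 (place 143), Ccnh at 0.37 (place 520) and Mnat1 at 0.39 (place 601).

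Genes that work with TFIIH were read from the same fit, in lists drawn up by function. In each list the count stands beside 21.3% of all genes called. The list of cell-cycle CDKs and genes around them, of which only some encode targets of the kinase module, was largely without calls. Of 17 tested CDKs, cyclins and T-loop phosphatases, 1 was higher and none lower, with a median log2 fold change of 0.01. Cdk4, Cdk6, Ccnd3, Ccne1 and Cdkn3 were scarce, at group means of 1.35 to 6.03 CPM, where the lack of a call says little. CDK1, the M-phase kinase, had transcripts at 87.4 ± 9.13 CPM in KO and 70.7 ± 10.1 CPM in Control (Cdk1, log2 0.31 ± 0.18, edgeR adjusted p = 0.252), and its cyclin Ccnb1 was at 572 ± 57.8 and 760.4 ± 81.0 CPM (-0.41 ± 0.17, edgeR adjusted p = 0.109). Cdk2 and Cdk20 were at log2 0.01 ± 0.25 and 0.03 ± 0.16, and their signs turned under 4 and 2 alternatives. These 4 genes are named after their values were seen, and Ccnb1 passed as lower only after the length and GC correction (adjusted p = 0.0387). The call was Ccnd1, cyclin D1, at 5.46 ± 0.361 and 2.32 ± 0.252 CPM (log2 1.23 ± 0.39, edgeR adjusted p = 0.0396), which did not pass with any 1 of the 6 libraries left out (adjusted p 0.0543 to 0.122), nor with no filter on low counts (0.0609).

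Other kinases and phosphatases of the polymerase CTD fell where they passed. Of 19 tested genes 6 were lower and none higher, with a median of -0.35. The small CTD phosphatase Ctdspl fell from 28.5, 38.9 and 42.5 CPM in Control to 6.89, 8.75 and 8.08 CPM in KO (log2 -2.21 ± 0.24, edgeR adjusted p = 1.23e-04). Its relatives Ctdsp1 (-1.33 ± 0.25) and Ctdsp2 (-1.11 ± 0.30) also fell. Cdk13, a CTD kinase of elongating polymerase, fell from 97.8, 116 and 95.5 to 49.4, 46.5 and 46.2 CPM (-1.12 ± 0.17, edgeR adjusted p = 0.00118). The other falls were in Ccnc (-0.77 ± 0.22) and Cdk19, genes of the Mediator kinase module, and Cdk19 fell by 1.00 ± 0.32 on the log2 scale. Cdk19 was scarce, at 40 to 76 counts per KO library and 104 to 140 per Control library. Cdk8, a more abundant kinase gene of this module, was at 199.5 ± 8.13 CPM in KO and 194.5 ± 5.20 CPM in Control. It did not pass (log2 0.04 ± 0.16, edgeR adjusted p = 0.889), so the module did not fall as a whole. The number lower in the CTD list was 3 without KO replicate 1. Ctdsp2 lost the call without KO replicate 1 or 2 or Control replicate 2 (adjusted p up to 0.103), Ccnc without KO replicate 1 or 3 or Control replicate 3 (up to 0.121), and Cdk19 without any 1 of the 6 libraries (up to 0.117). Ccnc also did not pass with the length and GC correction (adjusted p = 0.0768), nor Cdk19 with upper-quartile scaling (0.0563), library totals (0.0552) or no filter on low counts (0.0506).

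Among 18 other general and elongation factors, 1 was higher and 1 lower, with a median of -0.03. The TBP-related factor gene Tbpl1 rose by log2 0.92 ± 0.20, to 40.3 ± 4.39 from 21.3 ± 2.48 CPM (edgeR adjusted p = 0.00683). Tcea1, the elongation factor TFIIS, fell from 433 ± 61.7 to 279 ± 14.7 CPM (-0.63 ± 0.17, edgeR adjusted p = 0.0212), but lost the call without KO replicate 1, KO replicate 3 or Control replicate 1 (up to 0.0944). The TFIIE and TFIIF genes, which stand next to TFIIH at the promoter, gave no calls.

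Of 17 tested repair partners of TFIIH, 4 were higher, 3 were lower and 10 did not pass, with a median of 0.32. The nucleosome-binding protein gene Hmgn1 rose by log2 0.90 ± 0.17, to 450.4 ± 45.7 from 241 ± 27.4 CPM (edgeR adjusted p = 0.00390), and Rpa2, a subunit of the single-strand binding complex, from 64.7 ± 8.26 to 118 ± 20.3 CPM (0.87 ± 0.19). Xpc, the damage sensor that recruits TFIIH, was at 20.1 ± 2.18 CPM in KO and 40.2 ± 3.76 CPM in Control and fell by 1.00 ± 0.19 on the log2 scale (edgeR adjusted p = 0.00410). So did 4933407H18Rik, the symbol in the files for Uvssa, which brings TFIIH to stalled polymerase, from 72.4 ± 11.4 to 36.4 ± 7.55 CPM (-0.99 ± 0.21). The other calls were Ddb1 (0.90 ± 0.20) and Rad23b (0.54 ± 0.16), higher, and Ercc6 (-0.69 ± 0.21), lower. Rad23b kept the call only without Control replicate 3 (adjusted p up to 0.116), and Ercc6 only without Control replicate 1 (up to 0.140), among the fits that leave out 1 library, and Ercc6 did not pass with the correction (0.0506).

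Of 7 genes of the cytosolic iron-sulfur assembly pathway, which supplies the cluster of XPD, 2 were higher and none lower, with a median of 0.22. These were Ciapin1 (log2 0.76 ± 0.20, edgeR adjusted p = 0.0161) and Ciao1 (0.88 ± 0.28, adjusted p = 0.0451). Ciapin1 did not pass without KO replicate 1 or 2 or Control replicate 1 or 2 (adjusted p up to 0.0637), nor Ciao1 without KO replicate 1 (log2 0.43, adjusted p = 0.241) or any 1 Control replicate. Ciao1 also did not pass with limma-voom (adjusted p = 0.0716) or the correction (0.0629).

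**Figure D4:**
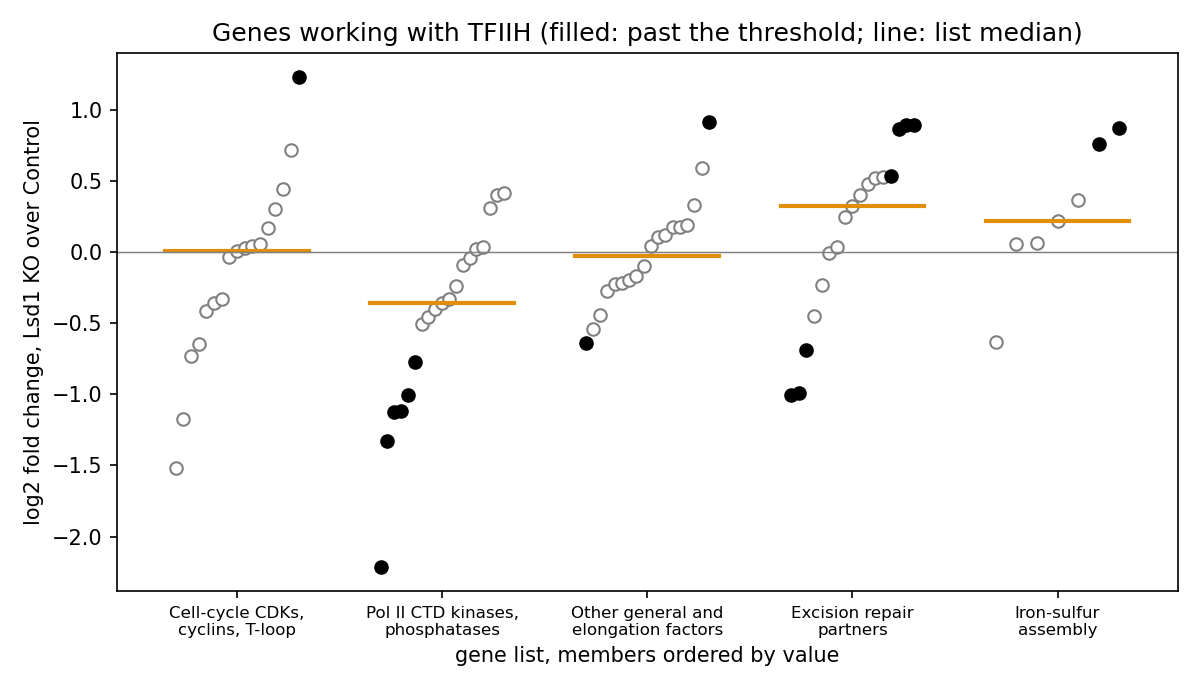
Log2 fold changes of KO over Control for each tested gene of the 5 lists, filled where the gene passed the threshold over all genes, with the list median as a line. Calls in the CTD list are all lower, those in the repair list lie on both sides, and the cell-cycle list holds 1 call.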

How the data were processed

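RNA of 6 oocyte samples was amplified from lysate with a NuGEN Ovation kit before paired-end TruSeq libraries were made, per the labels' protocols. The deposited files hold raw read counts per gene symbol, 1 library each; the values are whole numbers. Build mm9 and the tools HTSeq 0.5.3p9, TopHat2 2.0.7 and CASAVA 1.8.2 are listed in the submitters' processing notes; the sources used here give no annotation, options or strand setting. Samples were grouped by the genotype label. Replicates are biological per the series design and were treated as independent.

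In edgeR 4.0.16 (R 4.3.3), low genes were removed by filterByExpr at a minimum count of 10, libraries were scaled by TMM, and a quasi-likelihood F test (two-sided) was run on 12935 genes, adjusted after Benjamini-Hochberg; the threshold was 0.05. Standard errors were derived from the fold change and the test statistic. Mean log2 CPM used a prior count of 2. The members and the gene lists were chosen with earlier results of these data known; the genes named in each list were up to 4 calls, by smallest adjusted p, and other genes of the lists are named after their values were seen. Positions, merged exon lengths and coding lengths came from GENCODE M1 on NCBIM37, the assembly of mm9. Copies were sought with minimap2. In 1 simulated data set 10.6% of the edgeR calls were false, above the nominal 0.05, and in another random draw the share was below it. Far fewer genes were changed there than were called in the data. The rate of false calls is thus not settled, which bears on adjusted p-values close to the threshold. DESeq2 1.42.0 and limma 3.58.1 served as alternatives, beside other scalings and filters, a replicate block and each library left out. Chosen after seeing the data were a loess correction for length and GC content (values for 94.3% of genes tested), the core without Gtf2h4, marker sums without 1 gene and levels per coding length. Replicate pairs differed by more than counting noise (chi-square per degree of freedom 19.8 to 43.6). One further marker list is not reported here.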

Additional observations from a re-analysis of the deposited data

How the results depend on the processing

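The same 4 members passed as higher, and none as lower, under every alternative run. They were chosen on this contrast and the refits use the same libraries, so nothing is read from this. Over all genes, 1421 were higher and 1329 lower; at an adjusted p under 0.01 these were 676 and 497, with 1 library left out 932 to 1466 (lowest without Control replicate 1) and 638 to 1346 (638 without KO replicate 1, 727 without KO replicate 3, 781 without Control replicate 2). Over the 5 pathway lists, 8 were higher and 10 lower, at an adjusted p under 0.01 4 and 5, and with 1 library left out 4 to 6 and 5 to 9. The kinase minus core difference of 0.96 was 1.12 with the length and GC correction and 0.80 without Gtf2h4. That correction, chosen after seeing the data, gave 1159 higher and 1576 lower. The sign of Ercc3 turned with upper-quartile scaling (0.0073) and with at least 10 CPM in 3 libraries (0.029), and ran from -0.16 to 0.097 with 1 library left out (positive without KO replicate 3 or Control replicate 3). Under the same omissions Gtf2h2 ran from -0.21 to 0.076 (positive without the same libraries), Cdk2 from -0.072 to 0.16 (negative without KO replicate 2 or 3 or Control replicate 2) and Cdk20 from -0.044 to 0.084 (negative without Control replicate 3). Cdk2 and Cdk20 were at -0.17 and -0.16 with the correction. The causes were not tested. The block cannot move the kinase minus core difference (0.96), since each block holds 1 library of each group. Same-numbered libraries did not deviate together (r = -0.03, 0.11 and -0.02), so the numbers were not taken as pairs. With a replicate block 1270 genes were higher and 1098 lower, and Ccnd1, Cdk19, Ciao1, Rad23b and Tcea1 did not pass. Under this block 1 gene of the cell-cycle list other than Ccnd1 passed as higher. Depth limits Gtf2h4 and Ercc2, which the filter of 10 CPM removed.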
